A study of Homo sapiens with 24 samples.

Results

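ADH1B, SCG2 and OSR2 are 3 genes whose level was far below that of untreated cells when HPNE pancreas cells were kept in residual medium. They are described here across all 8 groups of the series. They were chosen from 48162 genes for the size of the difference of residual medium minus untreated in HPNE, so the levels in those 2 groups are a description of that choice and carry no test. In log2(FPKM + 1) they held ranks 1 to 3 among tested genes called by limma with no overlap of those 2 groups. The question left to the other groups is whether the genes are also low when the cells receive extracellular vesicles (EV). The series holds 24 RNA-seq libraries, with 3 in every group. Vesicles were given to 2 recipient lines. hTERT-HPNE, called HPNE below, came from normal pancreas and carries a telomerase transgene. HPDE-H6c7, called HPDE below, came from pancreatic duct epithelium and carries papillomavirus genes. All cells were grown in keratinocyte serum-free medium with antibiotics. They then had 24 h of fresh serum-free medium (untreated), of the medium remaining once EV had been isolated (residual medium), of 1e10 EV per well from the pancreatic carcinoma line PANC-1, or of 1e10 EV per well from PPCL-68 cells. Each line is a single established culture. The labels call the replicates biological triplicates but do not say whether they were separate cultures, so p-values measure the spread between these libraries.

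ADH1B encodes the beta subunit of class I alcohol dehydrogenase, which oxidises ethanol and other alcohols, retinol among them, and is abundant in liver, fat and fibroblasts of many organs. SCG2 encodes secretogranin II, an acidic protein of the granin family that is packed into dense-core secretory granules of neuroendocrine cells and is cut into peptides such as secretoneurin. OSR2 encodes a zinc finger transcription factor of the odd-skipped family, active in embryonic mesenchyme of the palate, limbs and kidney. The 3 genes share no family or enzyme pathway, and they lie on different chromosomes. In the deposited positions (hg19), ADH1B (ENSG00000196616) spans chromosome 4 from 100226121 to 100242558 on the minus strand. SCG2 (ENSG00000171951) spans chromosome 2 from 224461658 to 224467221 on the minus strand. The lengths used for scaling were 4072 bases for ADH1B and 2576 for SCG2. No other gene of the tables overlapped any of the 3.

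The stretch before the ADH1B start is shown because this gene had the widest range of the 3. The promoter sequence comes from RefSeq (GRCh38.p14), in which 1 of the 3 genes was matched, and covers chr4:99321402-99321651, the 250 bases before the start, read on the minus strand, which is the strand of the gene. Capitals mark CCAAT on the opposite strand (read here as ATTGG).
ADH1B: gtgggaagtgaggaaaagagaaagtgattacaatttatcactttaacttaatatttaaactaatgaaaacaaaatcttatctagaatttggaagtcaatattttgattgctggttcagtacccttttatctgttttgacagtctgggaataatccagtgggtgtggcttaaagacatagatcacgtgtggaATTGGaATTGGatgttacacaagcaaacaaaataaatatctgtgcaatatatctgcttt
Of 5 motifs searched on both strands, CCAAT had 2 matches, and 32.0% of 35116 promoter windows of this length held at least 1. TATAAA had 0 matches in this window and was present in 10.7% of all windows. The short cyclic AMP response motif TGACG, with 0 matches here, was present in 21.2%. The AP-1 motif TGACTCA, also with 0 matches, was present in 4.20%. A loose NF-kB motif also had 0 matches and was present in 54.4%. A match describes the letters of this window only.

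Values are FPKM, reads scaled to gene length and library total. Between 29209142 and 46490312 reads were assigned to genes per library. The labels give HPNE as a normal pancreas cell, and its identity was checked with marker genes. All 12 fibroblast markers had a mean of at least 1 FPKM in HPNE, with a sum of 10788 to 16938 FPKM per library against 127.8 to 182 in HPDE. The 8 epithelial markers summed to 5.15 to 13.7 FPKM in HPNE and to 1435 to 3507 in HPDE. By group, the fibroblast sum was 15278 to 16938 in untreated HPNE, 10929 to 15526 with residual medium, 12816 to 15412 after PANC-1 EV and 10788 to 11948 after PPCL-68 EV. The epithelial sum in the same order was 8.28 to 13.7, 5.15 to 8.48, 6.05 to 8.89 and 5.92 to 8.36 FPKM. The part of these sums in the results below was not tested. The 8 neuroendocrine markers summed to at most 0.363 FPKM in HPNE, and all but SYP stayed at or under 3 reads in every HPNE library. Hepatocyte, adipocyte, endothelial and leukocyte markers summed to at most 2.66, 17.6, 0.0949 and 1.19 FPKM in HPNE, with FABP4 making up nearly all of the adipocyte sum, and ALB, TTR and ADIPOQ at 1 read or fewer in every HPNE library. In each HPNE group 1 library lay apart from a close pair, at 2.05 to 3.31 times the root mean square log2 distance within that pair, against 1.08 to 1.24 times in HPDE. They were replicate 3 in the untreated and residual medium groups and replicate 1 in both EV groups. Results for the 3 genes and part of the list counts are given with and without them. The other named genes and the r values are given with them only. In bulk RNA, fewer cells of a type and less RNA per cell cannot be told apart.

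ADH1B was abundant in untreated HPNE cells, at 149.9, 145.6 and 111 FPKM in replicates 1 to 3, which placed it at rank 285 of 23988 genes with a read. With residual medium it had 0.400, 0.386 and 14.0 FPKM. The first 2 of these libraries held 70 and 52 reads of the gene, and replicate 3 held 1739. With PANC-1 EV the level was 39.3, 18.9 and 13.7 FPKM, and with PPCL-68 EV it was 20.2, 1.72 and 1.87 FPKM. Every library of the 3 treated groups was below every untreated library, and the treated groups overlapped one another. The group means in descending order were 135.7 ± 21.0 (untreated), 24.0 ± 13.5 (PANC-1 EV), 7.92 ± 10.6 (PPCL-68 EV) and 4.94 ± 7.88 FPKM (residual medium; SD, n = 3 each).

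SCG2 had 121.8, 116 and 80.1 FPKM in untreated HPNE cells, rank 409 in abundance. With residual medium it had 5.08, 4.83 and 7.90 FPKM. The 3 PANC-1 EV libraries had 33.3, 24.0 and 19.1 FPKM, all above every residual medium library and below every untreated one. The 3 PPCL-68 EV libraries lay close together at 8.01, 7.52 and 7.89 FPKM, within or just above the range of residual medium. In order, the means were 106.0 ± 22.7 (untreated), 25.5 ± 7.22 (PANC-1 EV), 7.81 ± 0.253 (PPCL-68 EV) and 5.94 ± 1.71 FPKM (residual medium; SD, n = 3 each). Only the lowest neighbours in this order, PPCL-68 EV and residual medium, overlapped. On the log scale SCG2 had the smallest spread between replicates of the 3 genes.

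OSR2 (ENSG00000164920) spans chromosome 8 from 99956631 to 99964332 on the plus strand (hg19), with a scaling length of 1838 bases. It was the least abundant of the 3 in untreated HPNE cells, at rank 2063. Its untreated libraries were split, with 33.4 and 31.6 FPKM in replicates 1 and 2 and 10.5 FPKM in replicate 3. Residual medium gave 0.596, 0.378 and 2.84 FPKM, from 47, 23 and 159 reads. PANC-1 EV gave 7.73, 2.67 and 1.40 FPKM, and PPCL-68 EV gave 2.49, 0.474 and 0.654 FPKM. No treated library reached the lowest untreated one, although PANC-1 EV replicate 1 came near it. The means were 25.2 ± 12.7 (untreated), 3.93 ± 3.35 (PANC-1 EV), 1.27 ± 1.37 (residual medium) and 1.21 ± 1.11 FPKM (PPCL-68 EV; SD, n = 3 each), and the 3 treated groups overlapped.

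**Figure D1:**
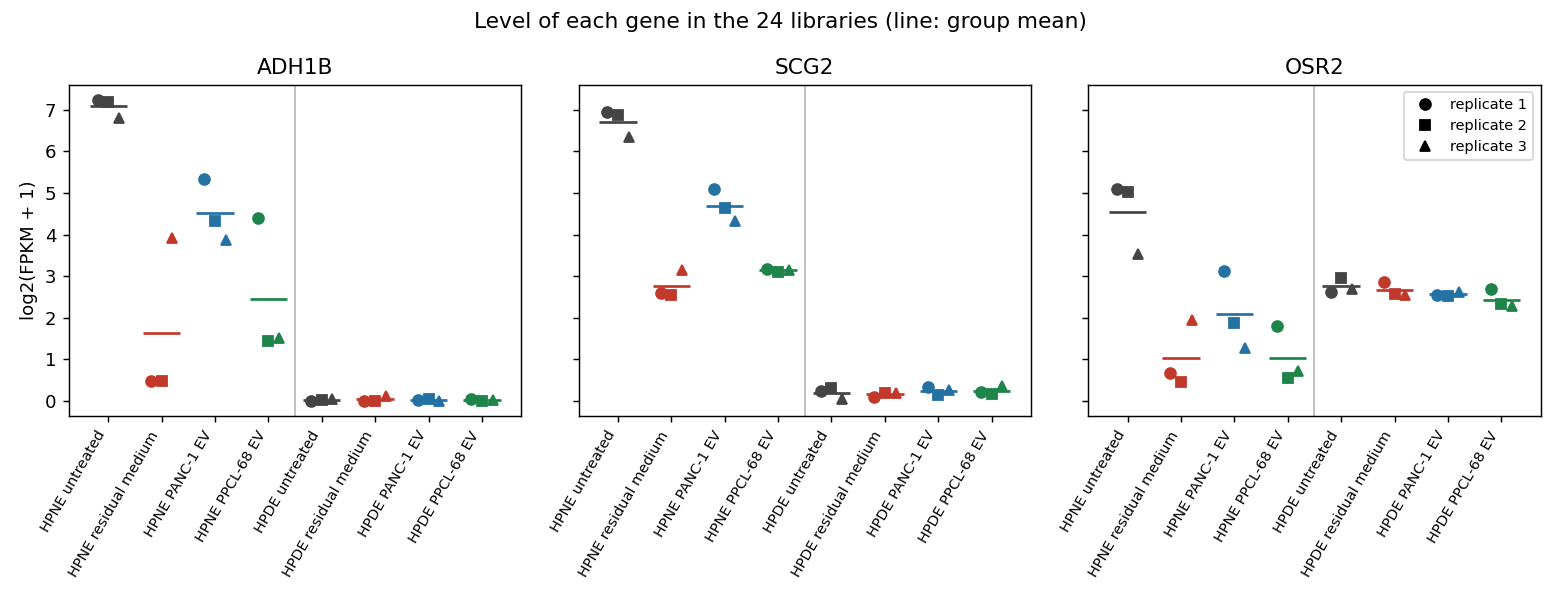
Level of ADH1B, SCG2 and OSR2 as log2(FPKM + 1) in each of the 24 libraries, by cell line and treatment. Marker shapes give the replicate and lines the group mean of the log values. In HPNE every treated library sits below every untreated one, with SCG2 after PANC-1 EV between the other groups, while in HPDE ADH1B and SCG2 stay near 0 and OSR2 stays between 3.83 and 6.79 FPKM.

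The levels thus stayed below untreated with both kinds of vesicles, as with residual medium, and the distance was smaller with PANC-1 EV. Differences are given below in log2(FPKM + 1), a scale that understates the change of low genes, with standard errors from limma. They carry no p, because the untreated or residual medium libraries in them also chose the genes, and comparisons with the same control share its libraries. Relative to untreated cells, PPCL-68 EV gave -4.63 (SE 0.94) for ADH1B, -3.58 (SE 0.22) for SCG2 and -3.52 (SE 0.58) for OSR2. As a ratio of mean FPKM, untreated cells had 17.1, 13.6 and 20.9 times the level with PPCL-68 EV. All 3 genes were thus lower without overlap of the groups, as were 30.4% of all tested genes in that comparison. PANC-1 EV gave -2.57 for ADH1B, -2.03 for SCG2 and -2.46 for OSR2 with the same errors, and untreated cells had 5.66, 4.16 and 6.40 times that level. Again all 3 were lower without overlap, as were 23.6% of all tested genes. Residual medium itself gave -5.46, -3.95 and -3.52, the values that chose the genes, beside a background of 31.8% of the 11503 tested genes that were lower there without overlap.

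Relative to residual medium, PANC-1 EV was higher by 2.89 (SE 0.94) for ADH1B, 1.93 (SE 0.22) for SCG2 and 1.06 (SE 0.58) for OSR2, and the groups were free of overlap for SCG2 alone, beside 23.4% of all tested genes that were higher without overlap. The mean level was 4.85, 4.29 and 3.09 times that with residual medium. PPCL-68 EV differed from residual medium by 0.83 (SE 0.94), 0.37 (SE 0.22) and 0.00 (SE 0.58) for ADH1B, SCG2 and OSR2, and the groups overlapped for each of the 3 genes, beside 26.3% of all tested genes that were higher without overlap.

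**Figure D2:**
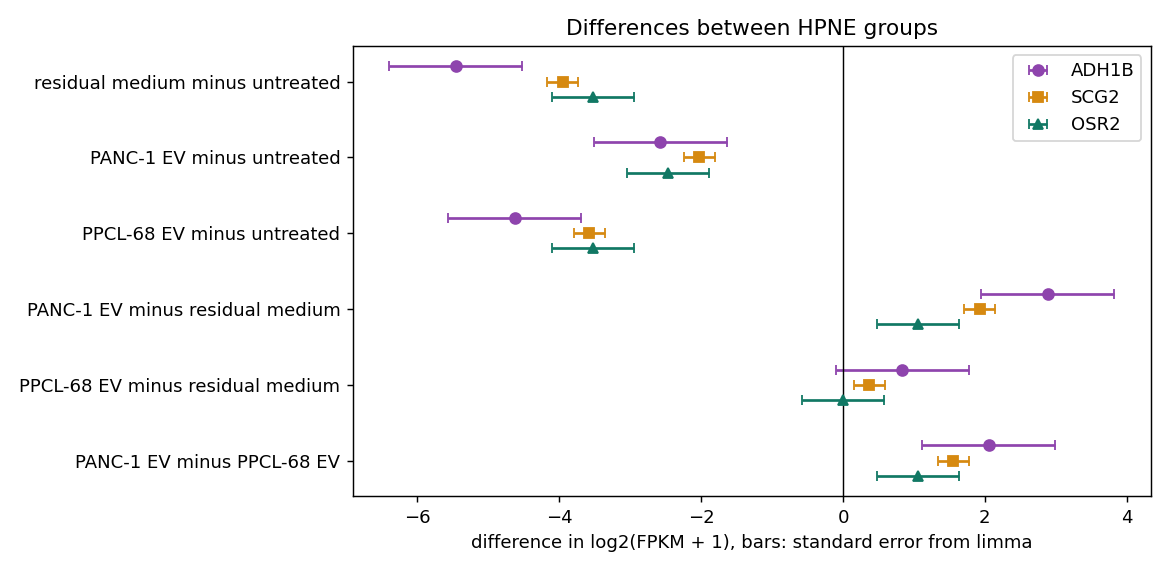
Differences between HPNE groups in log2(FPKM + 1) for the 3 genes, with bars of 1 standard error from limma. All differences from untreated are below 0, with -2.57, -2.03 and -2.46 after PANC-1 EV and -4.63, -3.58 and -3.52 after PPCL-68 EV for ADH1B, SCG2 and OSR2. The row of PPCL-68 EV minus residual medium lies nearest to 0.

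The libraries that lay apart moved with these values. For all 3 genes the library apart was the lowest of the untreated group and the highest of each of the other 3 groups. Without these 4 libraries the mean ADH1B level was 147.7 FPKM untreated, 16.3 after PANC-1 EV, 1.80 after PPCL-68 EV and 0.393 with residual medium (2 libraries each), and no 2 of these groups overlapped. SCG2 then had 119.0, 21.6, 7.70 and 4.96 FPKM in the same order, again with no overlap. OSR2 had 32.5, 2.03, 0.564 and 0.487 FPKM, and its last 2 groups still overlapped. The libraries left out were picked as the farthest over all genes, so the pairs left are close by that choice. For the 3 genes they were also the untreated and treated libraries nearest to each other. The share of all genes free of overlap was not taken for these pairs, so the lack of overlap has no background beside it. Leaving these libraries out widened the differences from untreated, for OSR2 to -3.50 after PANC-1 EV and -4.42 after PPCL-68 EV. The labels give no batch or date for these libraries. Whether material was mixed or libraries were exchanged between groups was not tested, and the group means and differences given here take the labels as they stand.

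The vesicle sources were compared with each other by a test, since neither group's libraries chose the genes. The spread in this test was estimated over all 12 HPNE libraries, which include those that did. SCG2 was higher with PANC-1 EV than with PPCL-68 EV by 1.55 (SE 0.22, 95% interval 1.05 to 2.06), with an adjusted p of 0.00434 by limma with Benjamini-Hochberg adjustment over all genes tested, and all 3 PANC-1 EV libraries were above all 3 PPCL-68 EV libraries. ADH1B differed by 2.05 (SE 0.94, interval -0.11 to 4.22, adjusted p 0.216 by limma) and OSR2 by 1.06 (SE 0.58, interval -0.28 to 2.40, adjusted p 0.304 by limma), neither past the threshold of 0.05. So 1 of the 3 genes was called, where 5.47% of the 11503 genes tested were called, and 15.1% were higher without overlap. With the 6 vesicle libraries alone the adjusted p by limma was 0.0161 for SCG2, 0.178 for ADH1B and 0.255 for OSR2. Libraries with the same replicate number in these 2 groups deviated together, and in each of the 3 pairs all 3 genes were higher with PANC-1 EV. In a fit of these 6 libraries with the replicate number as a block, all 3 genes were called. The adjusted p by limma was 0.0164 for ADH1B, 0.00591 for SCG2 and 0.0158 for OSR2, where 16.6% of genes were called. The pairing in that fit was picked from these same values and is not stated by the labels, so its calls of ADH1B and OSR2 add no support. With the planned replicate block over all HPNE groups, the adjusted p by limma was 0.241 for ADH1B, 0.0111 for SCG2 and 0.287 for OSR2. The share of all genes called was not taken for this fit or for the 6 vesicle libraries without a block. Without the library apart in each group the adjusted p by limma was 1.21e-06 for ADH1B, 7.27e-06 for SCG2 and 0.00252 for OSR2, where 36.4% of genes were called. Those libraries were picked from the same values as the farthest in each group. The pairs left were thus close by that choice, which makes the spread small, and these p-values add no support.

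HPDE cells, which took no part in the choice, had almost no ADH1B or SCG2. ADH1B had 0 to 11 reads per library, and 3 of 12 libraries exceeded 3 reads. SCG2 had 3 to 26 reads, at most 0.292 FPKM. Both were under the filter of a mean of 1 FPKM and were not tested in HPDE. OSR2 was present in every HPDE library, with 5.18, 6.79 and 5.49 FPKM untreated, 6.20, 4.93 and 4.87 with residual medium, 4.89, 4.73 and 5.16 with PANC-1 EV and 5.46, 4.06 and 3.83 with PPCL-68 EV. The lowest HPDE library thus had more OSR2 than 8 of the 9 treated HPNE libraries. The fall with PPCL-68 EV relative to untreated HPDE cells was -0.33 (SE 0.11, adjusted p 0.0196 by limma), although the groups overlapped, and 66.3% of the 12223 genes tested in HPDE were called in that comparison. That call was lost with no filter on low values (adjusted p 0.0813), and without untreated replicate 2 (0.105), PPCL-68 EV replicate 2 (0.0724) or PPCL-68 EV replicate 3 (0.0928). Residual medium differed from untreated by -0.11 (interval -0.37 to 0.16, adjusted p 0.555 by limma), where 20% of genes were called. PANC-1 EV differed from untreated by -0.20 (interval -0.46 to 0.07, adjusted p 0.150 by limma), where 60.6% were called. These groups did not overlap, and 37.6% of all genes were lower without overlap. Relative to residual medium, OSR2 differed by -0.09 with PANC-1 EV (interval -0.35 to 0.17, adjusted p 0.503 by limma, 63.3% of genes called) and by -0.22 with PPCL-68 EV (interval -0.49 to 0.04, adjusted p 0.0959 by limma, 67.7% called). The vesicle sources differed by 0.13 (interval -0.13 to 0.40, adjusted p 0.353 by limma, 50.1% called). The difference between the sources was 0.92 larger in HPNE than in HPDE for OSR2 (SE 0.63), which did not pass the threshold (adjusted p 0.352 by limma in a fit of all 24 libraries, 15.2% of 10483 genes called). The other 2 genes were too low in HPDE for a comparison between the lines.

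The genes that ranked next after OSR2 by the same difference were ANGPTL2, FABP3 and ABCA1, at -3.37, -3.27 and -3.16 against -3.52 for OSR2, given as a description of where the choice ended. The ranking held only named genes that were called and did not overlap between the 2 groups. ANGPTL2, a secreted angiopoietin-like protein, had 35.1 FPKM untreated, 2.48 with residual medium, 16.0 after PANC-1 EV and 3.72 after PPCL-68 EV. FABP3, a fatty acid binding protein, had 35.1, 2.24, 3.53 and 1.81 FPKM in the same order. ABCA1, the transporter that exports cholesterol, had 47.5, 5.10, 30.9 and 22.3 FPKM, so in FPKM its PANC-1 EV level was nearer to untreated and its PPCL-68 EV level nearer to residual medium.

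The families of the 3 genes were examined next. Class I alcohol dehydrogenases are near-identical in sequence, so reads may be divided among them, but the reads assigned to ADH1A in an HPNE library numbered at most 6 and those of ADH1C at most 25. ADH4 and ADH6 had at most 12 and 19 reads and ADH7 had 0 in all 24 libraries. ADH5, a class III enzyme that every cell type carries, had 79.7 ± 7.40 FPKM untreated and fell to 55.7 ± 4.65 with residual medium (-0.51, adjusted p 0.00226) and to 62.8 ± 2.24 with PANC-1 EV (-0.34, adjusted p 0.0289, limma). Its value with PPCL-68 EV was 70.3 ± 5.46 FPKM (-0.18, adjusted p 0.150, limma). Of the other granins, CHGA and CHGB reached at most 2 reads per HPNE library, SCG3 at most 7 and VGF at most 26. SCG5, which encodes the 7B2 chaperone of a prohormone convertase, moved opposite to SCG2. It rose from 0.628 ± 0.257 FPKM untreated to 4.74 ± 1.26 with residual medium (1.81, SE 0.24, adjusted p 0.000375 by limma) and to 5.23 ± 2.07 with PPCL-68 EV (1.89, adjusted p 0.000157 by limma). With PANC-1 EV its difference was 0.69 (adjusted p 0.0615 by limma). OSR1, the other odd-skipped gene, had 17.1, 17.0 and 14.0 FPKM in untreated HPNE. It had 6.34, 6.08 and 8.26 FPKM with residual medium, 8.20, 7.01 and 6.57 with PANC-1 EV and 4.93, 3.07 and 3.67 with PPCL-68 EV. No treated OSR1 library reached the untreated range, and its falls were -1.11, -1.04 and -1.81 (adjusted p 0.000446, 0.00137 and 1.2e-05 by limma). OSR1 was also higher with PANC-1 EV than with PPCL-68 EV, by 0.77 (adjusted p 0.0182 by limma). In HPDE, where OSR2 was present, OSR1 had at most 10 reads.

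Finally 4 lists of related genes, none of which contains the 3 genes, were followed relative to untreated HPNE. The share of all tested genes called was 43.9% with residual medium, 21.1% after PANC-1 EV and 42.5% after PPCL-68 EV, and the median difference of all genes was -0.05, -0.04 and -0.05. These shares count both directions together. The splits of the 4 lists into higher and lower thus have no background beside them, and whether they differ from all genes was not tested. Division by size factors moved the median for residual medium by 0.11, to 0.06. The share of all genes called was not taken under size factors, so the splits given under them have no background beside them. The alcohol and retinoid list (enzymes, carriers and receptors) had 15 of 34 genes above the filter. Of these 11 were called with residual medium (1 higher, 10 lower), 8 with PANC-1 EV (all lower) and 8 with PPCL-68 EV (1 higher, 7 lower), with list medians of -0.52, -0.36 and -0.31. Under size factors the first split was 3 higher and 10 lower. CRABP2, which carries retinoic acid to its receptor, fell from 5.85 ± 2.08 FPKM to 1.04 ± 0.0825, 1.31 ± 0.484 and 0.325 ± 0.124 in the same order of treatments (adjusted p 0.000353, 0.00133 and 2.77e-05 by limma). ALDH1A1, which makes retinoic acid from retinal, fell in all 3 comparisons, from 9.83 ± 0.943 FPKM to 4.18 ± 1.22, 5.25 ± 0.136 and 3.14 ± 0.956. RXRA, a partner receptor, also fell in all 3, from 20.7 ± 3.23 FPKM to 9.35 ± 1.33, 10.7 ± 1.30 and 10.99 ± 1.39. ALDH1B1, a mitochondrial aldehyde dehydrogenase, rose with residual medium, from 9.10 ± 2.78 to 16.2 ± 1.96 FPKM, and had 8.22 ± 0.372 and 7.91 ± 0.719 with the vesicles, neither called. RDH14, a retinol dehydrogenase, was called with PPCL-68 EV alone, where it rose from 8.44 ± 0.519 to 10.5 ± 0.363 FPKM, beside 8.80 ± 1.05 with residual medium and 9.81 ± 0.761 with PANC-1 EV.

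The granin and regulated secretion list had 21 of 36 genes above the filter, and its calls went both ways with residual medium and with PPCL-68 EV. With residual medium 9 were called (4 higher, 5 lower; 7 and 5 under size factors), with PANC-1 EV 2 (both higher) and with PPCL-68 EV 12 (4 higher, 8 lower; 5 and 6 under size factors), and the list medians were -0.06, -0.08 and -0.12. Leaving out single libraries moved the PANC-1 EV count between 0 and 4. Leaving out the library apart in each group gave 13 of 21 there, where 62.7% of all tested genes were called. RAB27B, a small GTPase of secretory vesicles, fell from 8.21 ± 0.432 to 2.07 ± 0.643 FPKM with residual medium and 1.92 ± 1.00 with PPCL-68 EV, and had 7.44 ± 1.88 with PANC-1 EV (not called). RAB3B, another vesicle GTPase, rose with residual medium from 6.39 ± 3.34 to 24.3 ± 5.09 FPKM, and had 11.9 ± 3.65 and 12.2 ± 4.22 after PANC-1 and PPCL-68 vesicles, neither called. RAB27A rose with both vesicles, from 8.02 ± 0.453 to 10.8 ± 0.300 and 13.1 ± 1.59 FPKM, and had 8.83 ± 0.759 with residual medium (not called). NPTX1, a secreted pentraxin, fell from 303.9 ± 148 to 51.8 ± 9.61 FPKM with residual medium and 40.5 ± 16.7 with PPCL-68 EV, and had 164.9 ± 50.2 with PANC-1 EV (not called). BDNF, a growth factor released from dense-core vesicles, rose in all 3 comparisons, from 2.13 ± 1.21 FPKM to 4.77 ± 0.0774, 6.38 ± 3.02 and 6.49 ± 0.984, although its PANC-1 EV and untreated groups overlapped.

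The mesenchymal regulator list of transcription factors had 34 of 50 genes above the filter. With residual medium 13 were called (2 higher, 11 lower), with PANC-1 EV 18 (8 higher, 10 lower) and with PPCL-68 EV 24 (10 higher, 14 lower), with list medians of -0.22, -0.11 and -0.17. SNAI1, a zinc finger repressor of epithelial genes, fell in all 3 comparisons, from 17.0 ± 8.20 FPKM untreated to 1.34 ± 1.08 with residual medium (adjusted p 0.00132), 4.03 ± 3.13 after PANC-1 EV (0.0204) and 1.05 ± 0.765 after PPCL-68 EV (0.000617, all by limma). The differences were -2.91, -1.88 and -3.07. KLF4 fell with residual medium, from 16.5 ± 4.62 to 3.30 ± 2.22 FPKM, but had 19.8 ± 4.65 after PANC-1 EV and 16.2 ± 0.705 after PPCL-68 EV (adjusted p 0.557 and 0.978 by limma). HAND2 fell with both vesicles, from 26.9 ± 3.63 FPKM to 9.94 ± 2.99 and 8.24 ± 3.30, and had 17.9 ± 3.48 with residual medium (not called). Other regulators rose with both vesicles. GATA6 went from 0.533 ± 0.110 FPKM to 2.08 ± 0.184 after PANC-1 EV and 3.51 ± 1.02 after PPCL-68 EV, FOXF1 from 6.47 ± 0.543 to 14.1 ± 2.93 and 18.6 ± 2.51, and RUNX2 from 6.63 ± 0.217 to 11.97 ± 1.22 and 20.6 ± 2.37. With residual medium these 3 had 0.473 ± 0.151, 6.20 ± 1.47 and 8.90 ± 2.44 FPKM, none called. FOXP1 rose in all 3 comparisons, from 7.32 ± 1.44 FPKM to 10.3 ± 0.230 with residual medium, 14.2 ± 2.58 after PANC-1 EV and 14.8 ± 0.184 after PPCL-68 EV.

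The fibroblast list had 34 of 44 genes above the filter, of which 18 were called with residual medium (3 higher, 15 lower; 6 and 14 under size factors), 9 with PANC-1 EV (1 higher, 8 lower) and 20 with PPCL-68 EV (2 higher, 18 lower), with medians of -0.47, -0.28 and -0.66. Without the library apart in each group these counts were 32, 26 and 32, where 71.7%, 62.7% and 69.5% of all genes were called. PDGFRB, the receptor for platelet-derived growth factor B, fell from 444.9 ± 90.6 FPKM to 107.8 ± 75.1 with residual medium and 142.7 ± 73.5 with PPCL-68 EV, and had 242.6 ± 72.4 with PANC-1 EV (not called). POSTN, a matrix protein, fell with residual medium, from 177.7 ± 67.8 to 43.6 ± 4.12 FPKM, and had 114.5 ± 46.8 and 157.2 ± 26.0 with the vesicles, neither called. LUM, a collagen-binding proteoglycan at 207.7 ± 22.7 FPKM untreated, fell in all 3 comparisons, to 90.4 ± 19.6, 120.7 ± 22.8 and 62.1 ± 20.9. Complement gene C7 also fell in all 3, from 3.89 ± 0.945 FPKM to 0.603 ± 0.255, 1.06 ± 0.538 and 0.665 ± 0.124. COL3A1, a fibrillar collagen, fell from 1599 ± 417 FPKM to 674.8 ± 407 with residual medium (groups overlapping) and 462 ± 225 with PPCL-68 EV, and had 856.6 ± 304 with PANC-1 EV (not called). Complement gene C3 rose in all 3 comparisons, from 0.246 ± 0.149 FPKM to 6.11 ± 5.45, 4.85 ± 0.669 and 7.84 ± 4.95. THBS1, a matrix glycoprotein, rose with residual medium from 160.2 ± 62.4 to 300.3 ± 11.2 FPKM, and had 155.8 ± 18.3 and 105.0 ± 19.0 with the vesicles, neither called.

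**Figure D3:**
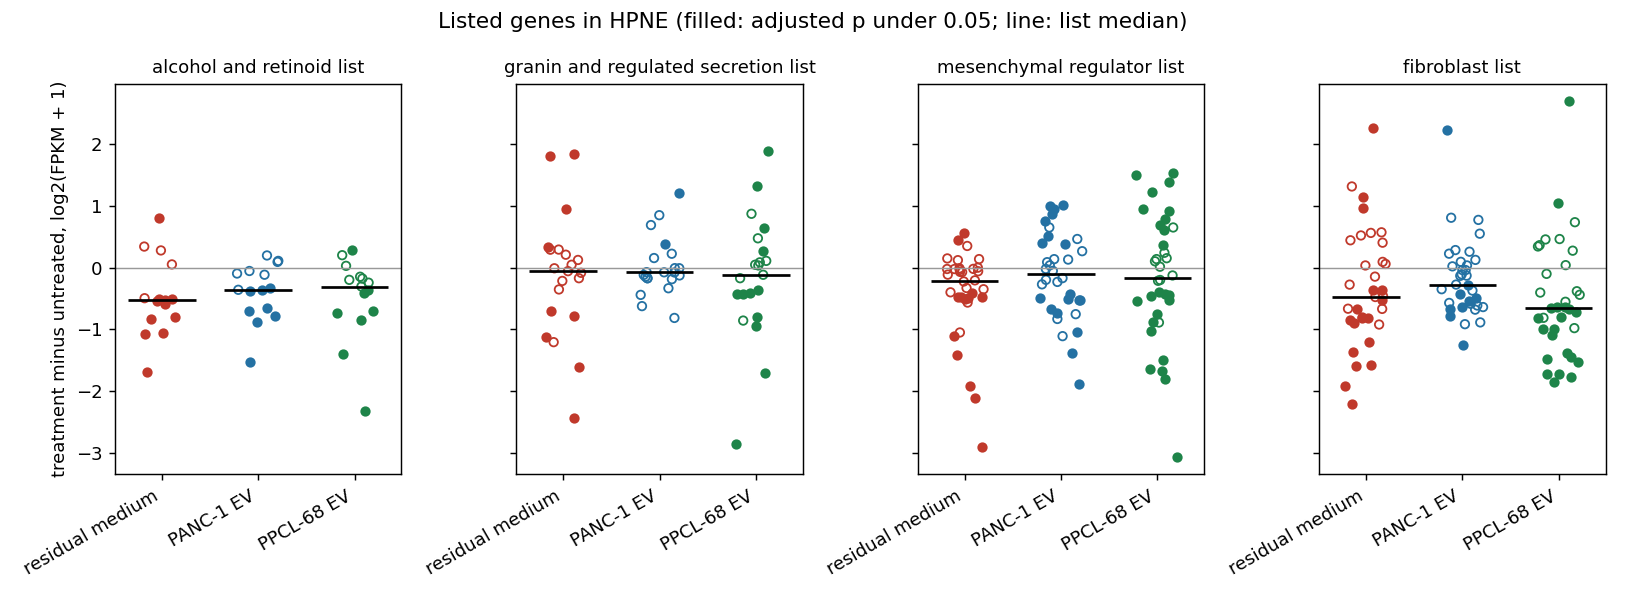
Difference from untreated HPNE in log2(FPKM + 1) for each tested gene of 4 lists, with filled points for genes called by limma and lines for the list medians. Most called genes of the alcohol and retinoid list and of the fibroblast list lie below 0 with each treatment. So do those of the mesenchymal regulator list with residual medium (2 higher, 11 lower), while with the vesicles they lie on both sides. Called genes of the granin list lie on both sides, except the 2 called with PANC-1 EV, which lie above 0. No share of all genes by direction stands beside these splits.

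Genes whose pattern over the 12 HPNE libraries was most like that of each gene were found by Pearson's r of log2(FPKM + 1) among 11502 others. These r values describe libraries that share treatment groups and the libraries apart, and no test was made. For ADH1B the 5 highest were TRIM2 (r = 0.99), PDGFRB (0.99), TMEM26 (0.99), POM121L9P (0.99) and PAMR1 (0.99). For SCG2 they were FMNL1, TMEM8B, CYTH3, PEPD and PLXND1, and for OSR2 they were SNAI1, CXXC5, PLTP, NAALAD2 and PIGZ, all at 0.99 as well. The 3 genes were less like one another, with r of 0.94 between ADH1B and OSR2, 0.92 between ADH1B and SCG2 and 0.94 between SCG2 and OSR2, and SCG2 held rank 283 among the genes like ADH1B. The alike genes differed in size of change. PLXND1, a semaphorin receptor, had 69.7 FPKM untreated, 20.6 with residual medium, 35.7 after PANC-1 EV and 19.7 after PPCL-68 EV, and CXXC5 had 57.9, 17.9, 27.1 and 17.1 FPKM, both a smaller ratio than that of SCG2 or OSR2.

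**Figure D4:**
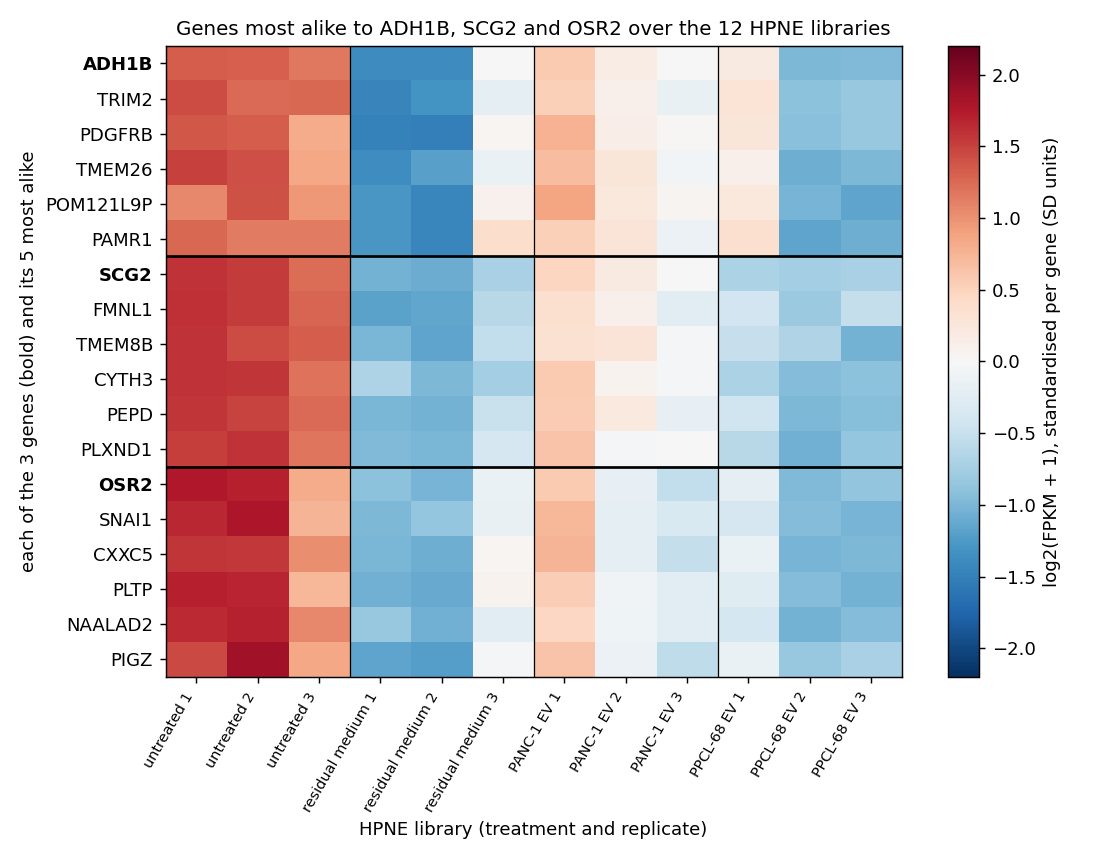
ADH1B, SCG2 and OSR2 (bold) and the 5 genes most alike to each over the 12 HPNE libraries, as log2(FPKM + 1) standardised per gene. Columns are libraries in groups of 3. Untreated libraries are high in each row. Residual medium replicate 3 is the highest of its group in every row but CYTH3, and PPCL-68 EV replicate 1 is the highest of its group in every row.

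The nearest expressed protein-coding genes were compared by position. STK3 lies 1.58 kb before OSR2 and VPS13B 61.2 kb after it. Neither was called in any of the 3 comparisons with untreated cells (adjusted p from 0.119 to 0.842 by limma), and STK3 had 4.70 ± 0.136 FPKM untreated and 4.52 ± 0.888 with residual medium. ADH5, described above, and TRMT10A lie 216 and 225 kb from ADH1B, and TRMT10A was not called (adjusted p from 0.0701 to 0.486 by limma). On the SCG2 side WDFY1, 253 kb away, had 21.9 FPKM both untreated and with residual medium, and rose to 28.4 ± 1.59 FPKM with PANC-1 EV (0.37, adjusted p 0.0107 by limma). KCNE4, a potassium channel subunit 399 kb from SCG2, fell from 92.3 ± 14.6 to 14.2 ± 10.4 FPKM with residual medium (-2.82, adjusted p 0.000307 by limma) and to 38.2 ± 10.8 with PPCL-68 EV (-1.27, adjusted p 0.0151 by limma). With PANC-1 EV it had 51.6 ± 6.65 FPKM (-0.82, adjusted p 0.123 by limma).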

How the data were processed

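The authors deposited 1 table per library with an FPKM value for each of 48162 genes, with gene length, position and type, per the file headers. The submitters' processing notes name CASAVA, STAR, HTSeq, DESeq2 and hg19, with no roles or versions given. Replicates were not pooled. The library kit kept no strand, per the labels' protocols, so antisense genes can share reads. FPKM times gene length gave whole multiples of 1 step (within 0.05 reads) for 100% of values, from which reads per gene were recovered, and 3 reads were taken as the floor. Read numbers cover counting error only.

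Groups and replicate numbers came from the titles. limma 3.58.1 (R 4.3.3; lmFit, eBayes with trend) was fitted to log2(FPKM + 1) of the 12 libraries of a line, with treatment as the factor, keeping genes whose mean FPKM over them reached 1. Intervals use the 8 residual degrees of freedom. The vesicle sources were compared between the lines in 1 fit of all 24 libraries, over genes that reached this mean in both. Tests were two-sided, Benjamini-Hochberg adjusted over all genes tested, threshold 0.05. The 3 genes, the lists and the rule for named genes were chosen with earlier results of these data known. Named were the 3 genes, their family, up to 2 rises and 2 falls per list and comparison without overlap of groups, the 5 most alike genes, the next 3 in rank and the nearest neighbours.

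Same-numbered libraries of PANC-1 EV and PPCL-68 EV in HPNE deviated together (correlation across genes 0.292 to 0.565 in the 3 pairs, a pairing read from the data and not from the labels), so a fit with the replicate block was added for that comparison after the data had been seen. Alternatives were the replicate block over all groups, a pseudocount of 0.1, no filter, size factors, only the groups compared, limma voom on recovered reads, each library left out, and the 4 HPNE libraries apart left out. The fits were tested on simulated reads with the same dispersion for every gene and no library apart, so that test does not cover the spread seen in HPNE.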

Additional observations from a re-analysis of the deposited data

How the results depend on the processing

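No called value changed direction. The untested difference of PPCL-68 EV minus residual medium changed sign without single libraries, from -0.14 to 1.98 for ADH1B and from -0.38 to 0.46 for OSR2. For the vesicle sources in HPNE, SCG2 stayed called in all 20 alternatives, from 1.35 to 1.74 without single libraries, while ADH1B and OSR2 became called in 2 alternatives each. Both of these used the same data to choose the libraries left out or the pairing. ADH1B was then 2.61 without the library apart in each group and 2.05 with the replicate block in the 2 vesicle groups. OSR2 was 0.93 and 1.06 in the same order. The share of all genes called was taken for those 2 alternatives only, so the SCG2 calls under the others have no background beside them. Without single libraries ADH1B ranged from 1.54 to 3.03 and OSR2 from 0.54 to 1.47. The replicate block over all groups changed no other call (ADH1B adjusted p 0.241, SCG2 0.0111 and OSR2 0.287 by limma). Over the other HPNE group pairs the mean correlation of same-numbered deviations ran from -0.432 to 0.206, and in HPDE from -0.141 to 0.029.

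OSR2 in HPDE with PPCL-68 EV minus untreated was -0.33 and not called with no filter. It ranged from -0.46 to -0.23 without single libraries, and minus residual medium from -0.35 to -0.13, called without PPCL-68 EV replicate 1 (adjusted p 0.00967 by limma). The share of all genes called was not taken for that fit. Relative to untreated HPNE, OSR2 with PPCL-68 EV was -4.43 with a pseudocount of 0.1, -4.51 by limma voom and -4.42 without the libraries apart, and with PANC-1 EV -3.50 without them. SCG2 with PANC-1 EV was -2.42 without them. With no filter, ADH1B and SCG2 in HPDE differed by -0.04 to 0.09 (adjusted p from 0.475 by limma).

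With no filter, PANC-1 EV minus untreated gave 5 in the alcohol and retinoid list and 11 in the mesenchymal regulator list. The share of all genes called was not taken with no filter or without single libraries, so those counts have no background beside them. Without the libraries apart, PANC-1 EV gave 26 of 34 in the fibroblast, 13 of 21 in the granin and 28 of 34 in the mesenchymal list, beside 62.7% of all genes. PPCL-68 EV gave 13 of 15 in the alcohol and retinoid and 32 of 34 in the fibroblast list, beside 69.5%. Residual medium gave 32 of 34 in the fibroblast and 20 of 34 in the mesenchymal list, beside 71.7%. Without single libraries the ranges with PANC-1 EV were 5 to 9 (alcohol and retinoid), 4 to 12 (fibroblast), 0 to 4 (granin) and 10 to 22 (mesenchymal). They were 5 to 13 (granin) with PPCL-68 EV and 5 to 10 (granin) with residual medium. The causes were not tested.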
